A study of Mus musculus with 9 samples.

Results

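The 97 genes described here encode the nuclear subunits of the oxidative phosphorylation system and a set of proteins that help to assemble it. They were taken from all genes on the array by symbol (Ndufa, Ndufb, Ndufc, Ndufs, Ndufv, Sdh followed by a, b, c or d, Uqcr, Cox4i, Cox5, Cox6, Cox7, Cox8 and Atp5). They are 97 of 19505 genes with a symbol, each read by 1 of the 22206 transcripts, and all 97 were matched to RefSeq by gene ID. By complex there were 36 genes of complex I, 4 of complex II, 8 of complex III, 20 of complex IV and 17 of complex V, 85 subunits in all. The remaining 12 genes, Ndufaf1 to Ndufaf8 and Sdhaf1 to Sdhaf4, carry the same prefixes but encode assembly factors and were kept as a group of their own. Ndufa4, Ndufa4l2 and Cox7a2l were counted with complex IV. The genes lie on 19 chromosomes, 3 of them on the X chromosome. Symbols are those of the array annotation, in which the ATP synthase genes still carry older names. Ndufb4 and Ndufb4b are near-identical copies, and a probe may read both.

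Hippocampal RNA was hybridised to 9 Clariom S mouse arrays, 3 per group, and signal is given on a log2 scale. SAMR1 is the senescence-resistant control strain and SAMP8 the senescence-prone strain, which shows early decline in learning and memory. All mice were males of 6 months from a commercial breeder. SAMR1 water and SAMP8 water mice were treated with water. SAMP8 TFQA mice received 3,4,5-tri-feruloylquinic acid (TFQA), prepared in ethanol and added to drinking water, by oral gavage at 1 mg/kg once daily for 37 days. No SAMR1 group received TFQA, so the treatment was measured in SAMP8 only, and SAMR1 differs from SAMP8 across the genome, not at 1 locus. Nothing used here states that the arrays of a group came from separate mice, so a p-value reflects only how far these samples scattered, and that scatter may be technical. The 3 comparisons share arrays and are not independent of one another.

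The respiratory chain sits in the inner mitochondrial membrane. Complex I takes electrons from NADH and complex II from succinate, both pass them to ubiquinone, complex III hands them on to cytochrome c, and complex IV reduces oxygen to water. Complexes I, III and IV pump protons, and complex V, the ATP synthase, uses the proton gradient to make ATP. Neurons depend on this supply for ion pumping and synaptic transmission. A few subunits of every complex except complex II are encoded by mitochondrial DNA, and those were not analysed here.

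Array medians lay between 6.76 and 6.81, and the correlation between any 2 arrays was 0.988 to 0.993. Neuronal identity was clear from Snap25, a synaptic vesicle fusion protein, at 17.14 to 17.45, and Neurod6, a transcription factor of excitatory forebrain neurons, at 13.68 to 15.06. The labels also name neural stem cells, but Nes (5.09 to 6.07), Eomes (3.47 to 4.76) and Mki67 (4.06 to 5.71) lay below the array medians, as did Top2a (5.57 to 6.56). The other 3 of the 7 stem and progenitor markers fixed here, Sox2 (9.41 to 10.54), Hes5 (7.94 to 8.63) and Dcx (7.69 to 8.22), lay above them. Marker genes of other cell types differed between arrays. The mean deviation of 11 meningeal fibroblast markers ranged from -0.67 to -0.34 on SAMR1 water arrays and from 0.11 to 0.61 on SAMP8 water arrays. At the threshold of the study defined below, 7 of them were higher (63.6%). The same ranges were -0.92 to 0.27 and 0.18 to 0.80 for 9 choroid plexus markers, with 7 higher (77.8%). They were -0.37 to -0.15 and -0.03 to 0.07 for 7 endothelial markers, with 2 higher (28.6%). For 12 neuronal markers they were -0.08 to 0.19 and -0.16 to -0.06, with 1 lower (8.33%). Of all transcripts, 3.4% were higher and 2.7% lower at this threshold. In SAMP8 TFQA vs. SAMP8 water, all 9 choroid plexus markers had lower means. Of these, 3 passed the threshold (33.3%, compared to 3.76% of all transcripts called lower). SAMP8 TFQA replicate 2 stood apart, with a mean of 2.83 over 10 striatal markers against -0.71 to 0.57 on the other arrays, and -0.56 over 13 hippocampal neuron markers. The part of these differences in the results on respiratory genes was not tested, and in such bulk samples fewer cells of a type and less RNA per cell cannot be told apart.

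The respiratory genes were measured with little scatter. Their median within-group SD was 0.17 on the log2 scale, compared to 0.24 over all transcripts. The comparison was not matched for signal, as the 97 genes averaged 11.66 to 11.84 per array and all transcripts 7.39 to 7.41. The median standard error of a difference was 0.16, and the median 95% confidence interval reached 0.36 to either side, a factor of 1.28. Their mean varied between arrays within every group. The mean deviation of the 97 genes was 0.12, 0.04 and -0.06 in SAMR1 water, -0.07, 0.03 and -0.02 in SAMP8 water, and -0.06, 0.06 and -0.04 in SAMP8 TFQA. The groups overlapped, and SAMR1 water replicate 1 was the highest array.

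**Figure D1:**
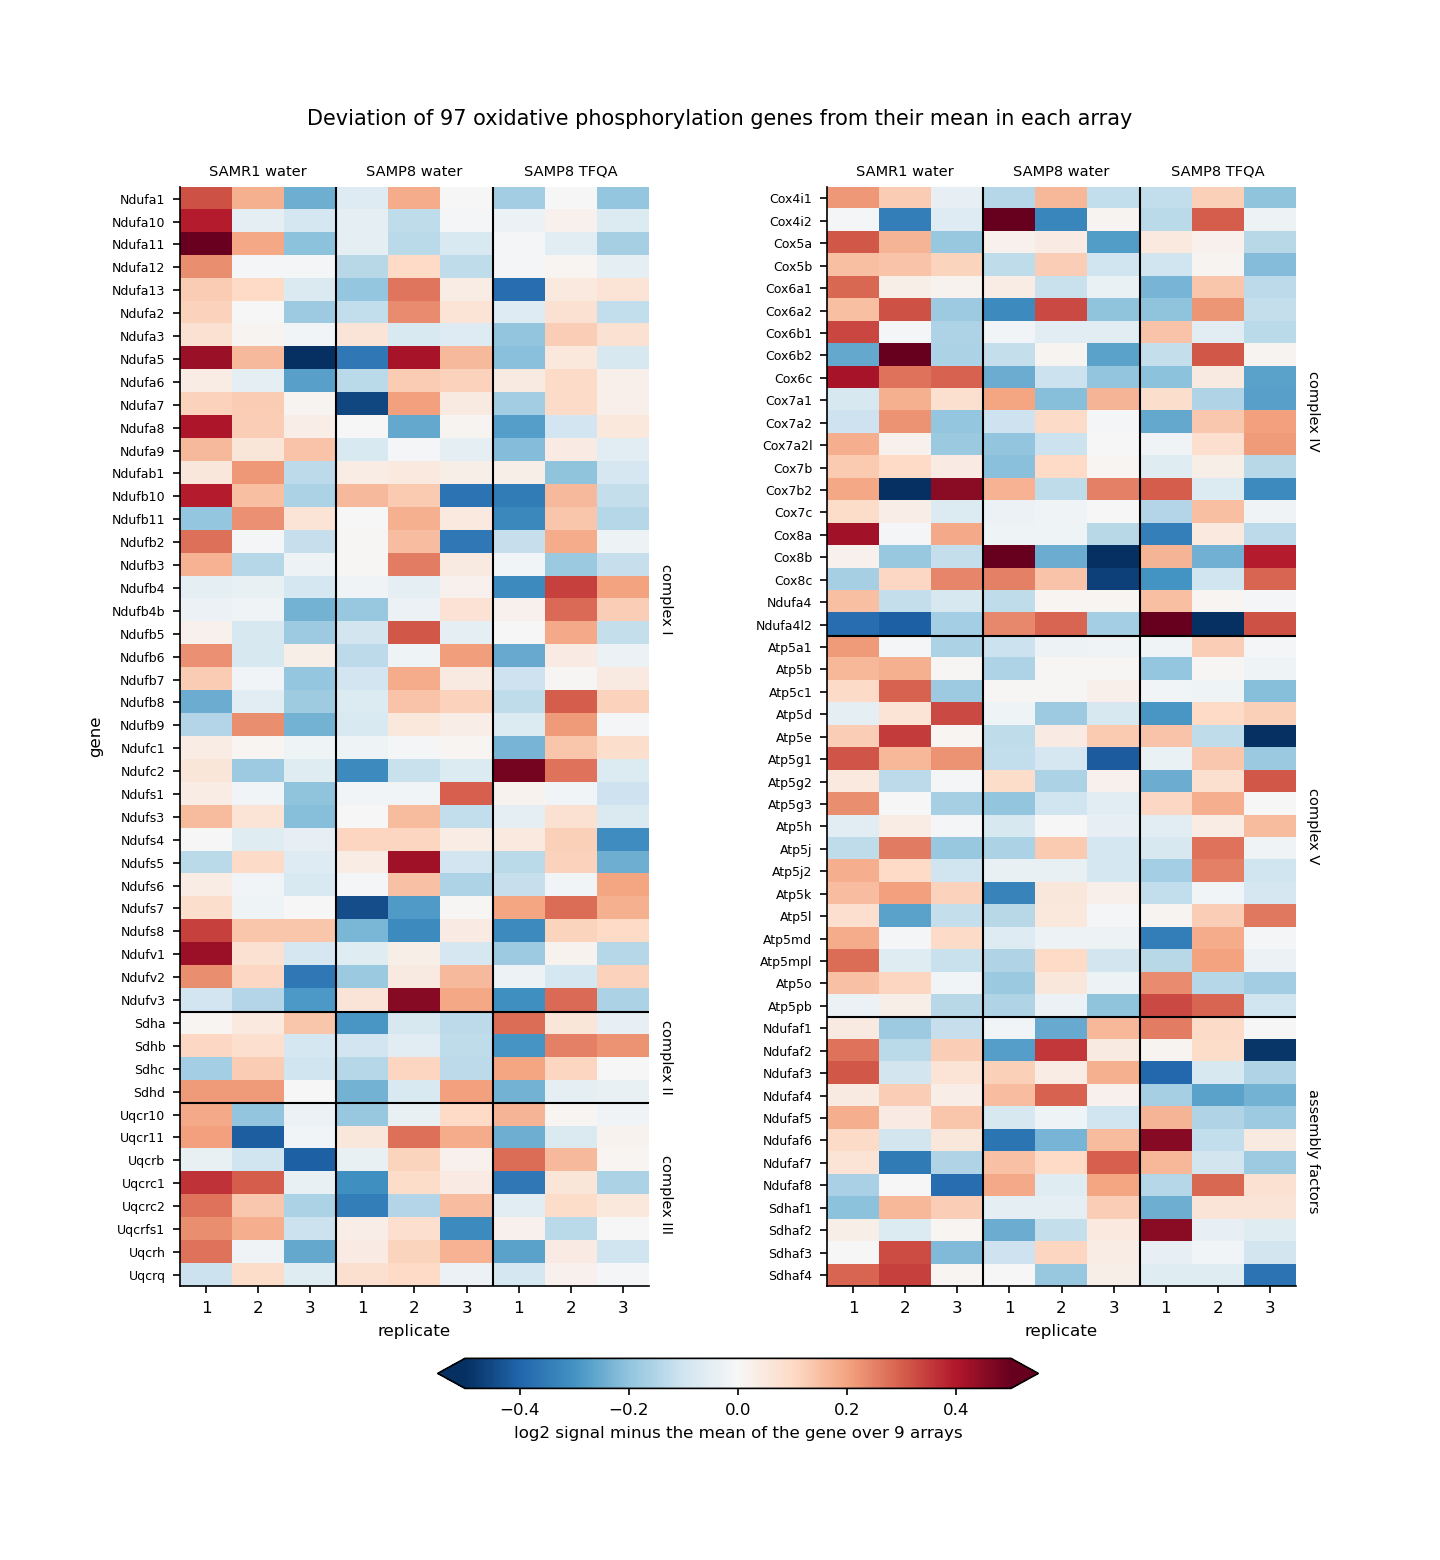
Heat map of the 97 genes (rows, grouped by complex) on the 9 arrays (columns, grouped by group and replicate), with the log2 deviation of each value from the mean of its gene as colour. SAMR1 water replicate 1, with a mean deviation of 0.12, is the highest column, and no group forms a block across all complexes.

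A gene is called here by the threshold of the study, an unadjusted p under 0.05 in limma with a fold change over 1.1. In SAMP8 water vs. SAMR1 water, 4 of 97 genes passed (4.12%, compared to 6.09% of all transcripts), Ndufv3 higher (background 3.4%) and Cox6c, Atp5g1 and Ndufs8 lower (background 2.7%). In SAMP8 TFQA vs. SAMP8 water, 3 passed (3.09%, compared to 7.12%), Ndufs7 and Ndufc2 higher (background 3.36%) and Ndufaf4 lower (background 3.76%). In SAMP8 TFQA vs. SAMR1 water, 2 passed (2.06%, compared to 8.06%), Cox6c and Sdhaf4, both lower (background 3.99%), and 0 were higher (background 4.07%). The shares of respiratory genes were below those of all transcripts in each comparison. After Benjamini-Hochberg adjustment of the limma p-values, 0 of the 97 genes passed in any comparison, against backgrounds of 0.509%, 0% and 0.576%. The smallest adjusted p was 0.346 in the strain comparison, 0.587 in the treatment comparison and 0.374 in the remaining pair.

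The differences were small. In SAMP8 water vs. SAMR1 water, 34 genes were above and 63 below the control mean (64.9% below, compared to 52.4% of all transcripts), and the median difference was -0.05 compared to -0.01. The number below depended on scaling and on 1 array, since 52 of 97 lay below after a further quantile normalisation and 54 of 97 without SAMR1 water replicate 1. In SAMP8 TFQA vs. SAMP8 water, 51 lay above and 46 below (47.4% below, compared to 48.7%), the median was 0.01 for both, with 59 below when SAMP8 TFQA replicate 2 was left out and 64 below after a further quantile normalisation. In SAMP8 TFQA vs. SAMR1 water, 38 lay above and 58 below, Uqcrq was equal in both, and the median was -0.05 compared to -0.01. The 3 arrays of one group lay wholly outside those of the other for 13 genes in the strain comparison (13.4%, background 11.8%), 8 in the treatment comparison (8.25%, background 11.8%) and 13 in the remaining pair (13.4%, background 12.3%). These shares were close to or below the background. The confidence interval lay within a 1.5-fold change in either direction for 75, 78 and 71 of the 97 genes in the same order.

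**Figure D2:**
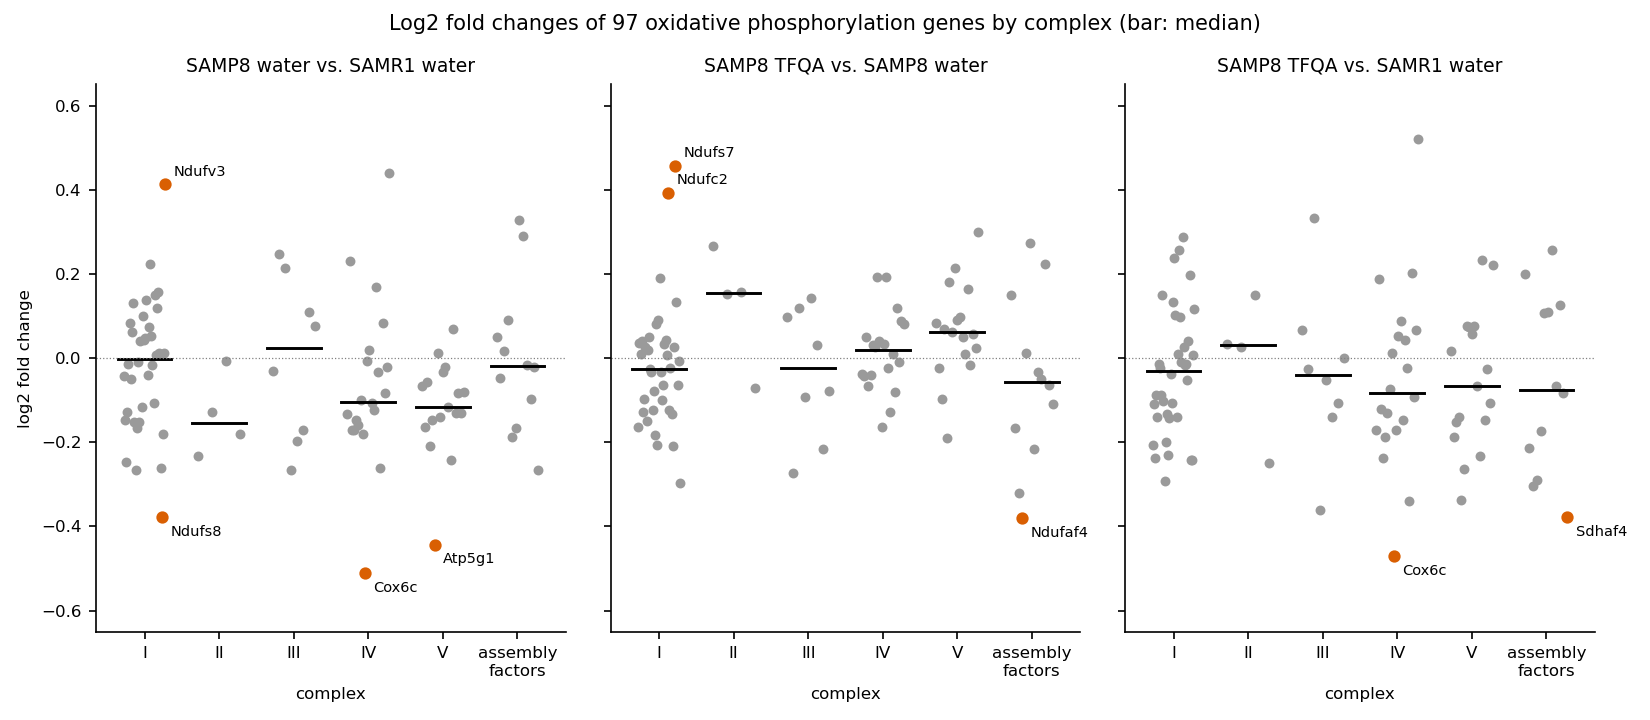
Log2 fold change of each of the 97 genes (points) by complex in the 3 comparisons (panels), with the median of each complex as a bar and genes past the threshold of the study in colour. The points lie between -0.51 and 0.52, and in the strain comparison 15 of 17 genes of complex V and 15 of 20 of complex IV lie below 0.

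Expression of respiratory genes is coordinated in part by the transcription factors NRF1, the ETS family member GABP and YY1. Promoter windows from 250 bases before to 50 bases after the transcription start (RefSeq, GRCm38.p6) were available for 81 of the genes, 86 windows in all, and were searched on both strands. The NRF1 motif GCGCANGCG was present in 29.1% of them, compared to 6.25% of 32851 windows of all genes. The YY1 motif AAGATGGC was present in 12.8%, compared to 2.75%, and the ETS motif CCGGAAGT in 5.81%, compared to 3.89%. The SP1 motif GGGGCGGGG, which can overlap other GC-rich motifs, was present in 14% and 11.4%. Windows of complex IV held the NRF1 motif in 1 of 14 cases, those of complex V in 7 of 18, those of complex I in 9 of 35 and those of the assembly factors in 4 of 11. The promoters of 4 genes past the threshold of the study are shown, because the genes were called in different comparisons and their windows differ in these motifs. The capitals mark the NRF1 motif in Ndufaf4 (chr4:24897833-24898132, plus strand) and Sdhaf4 (chr1:24005591-24005890, minus strand) and the YY1 motif in Ndufs7 (chr10:80249199-80249498, plus strand), and Atp5g1 (chr11:96075582-96075881, minus strand) had none of the NRF1, ETS and YY1 motifs.
Ndufaf4: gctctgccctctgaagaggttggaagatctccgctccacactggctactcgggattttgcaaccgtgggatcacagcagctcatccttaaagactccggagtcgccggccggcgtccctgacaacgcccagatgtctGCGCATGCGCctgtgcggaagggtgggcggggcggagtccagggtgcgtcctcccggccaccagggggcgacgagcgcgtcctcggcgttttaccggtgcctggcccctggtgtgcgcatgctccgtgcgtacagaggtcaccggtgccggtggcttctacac
Sdhaf4: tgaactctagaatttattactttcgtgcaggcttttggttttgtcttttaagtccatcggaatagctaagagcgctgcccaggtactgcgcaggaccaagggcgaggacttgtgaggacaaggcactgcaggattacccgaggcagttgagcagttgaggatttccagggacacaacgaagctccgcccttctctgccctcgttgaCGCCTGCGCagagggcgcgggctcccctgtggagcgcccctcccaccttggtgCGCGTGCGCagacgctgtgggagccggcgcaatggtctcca
Ndufs7: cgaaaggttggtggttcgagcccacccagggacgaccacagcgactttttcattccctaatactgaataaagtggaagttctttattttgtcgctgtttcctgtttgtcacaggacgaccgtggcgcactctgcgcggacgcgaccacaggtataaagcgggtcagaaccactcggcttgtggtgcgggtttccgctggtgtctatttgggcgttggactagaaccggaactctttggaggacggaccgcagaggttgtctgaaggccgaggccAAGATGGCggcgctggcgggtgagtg
Atp5g1: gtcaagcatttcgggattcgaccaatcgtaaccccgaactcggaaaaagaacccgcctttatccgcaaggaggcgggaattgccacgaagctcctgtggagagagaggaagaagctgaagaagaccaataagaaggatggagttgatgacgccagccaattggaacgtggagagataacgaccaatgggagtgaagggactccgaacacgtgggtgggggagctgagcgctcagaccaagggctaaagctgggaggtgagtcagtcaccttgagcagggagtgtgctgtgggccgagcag
A motif match is a description of the sequence, and binding of these factors was not measured.

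Complex I, NADH dehydrogenase, was balanced between the strains, with 18 genes above and 18 below the SAMR1 water mean (median 0.00). The threshold of the study was passed by 2, in opposite directions (5.56%, compared to 6.09% of all transcripts). Ndufs8 (chr19:3908863-3912774, GRCm38.p6), an iron-sulfur subunit on the path to ubiquinone, was 11.63, 11.43 and 11.43 in SAMR1 water, 11.06, 10.97 and 11.33 in SAMP8 water, and 10.97, 11.40 and 11.39 in SAMP8 TFQA. All SAMP8 water arrays lay below all SAMR1 water arrays, and the means differed by -23.0% (log2 fold change -0.38, SE 0.17, adjusted p = 0.819 in limma). Ndufv3 (chr17:31520115-31531326), a small accessory subunit of the NADH-binding module, was 7.09, 7.04 and 6.90, then 7.25, 7.64 and 7.38, then 6.88, 7.47 and 7.03 in the same groups. All SAMP8 water arrays lay above all SAMR1 water arrays, by 33.2% in the mean (0.41, SE 0.18, adjusted p = 0.806), and the TFQA arrays overlapped both. Neither call was firm, since Ndufs8 passed in 7 and Ndufv3 in 8 of 17 alternative analyses. Without SAMP8 water replicate 2 the difference of Ndufv3 was 0.31 and missed the threshold, as it also did without replicate 3 of that group, without any 1 of the SAMR1 water arrays and without SAMP8 TFQA replicate 3. The difference of Ndufs8 ranged from -0.41 to -0.30 over the arrays whose removal ended its call, which were SAMP8 water replicates 1 and 2, all SAMR1 water arrays, and SAMP8 TFQA replicates 2 and 3.

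With TFQA, 16 complex I genes were above and 20 below the SAMP8 water mean (median -0.03), and 2 passed, both higher (5.56%, compared to 7.12%). Ndufs7 (chr10:80249105-80256794), the iron-sulfur subunit next to the ubiquinone site, was 11.73, 11.62 and 11.64 in SAMR1 water, 11.20, 11.36 and 11.65 in SAMP8 water, and 11.84, 11.92 and 11.82 in SAMP8 TFQA. The TFQA arrays lay above every array of both water groups, and the SAMP8 water arrays were spread widely. Compared to SAMP8 water the level was 37.2% higher (0.46, 95% confidence interval 0.12 to 0.80, adjusted p = 0.587), and in SAMP8 water vs. SAMR1 water the difference was -0.26 (adjusted p = 0.901). Without SAMP8 water replicate 1 the TFQA difference was 0.36 and missed the threshold, and without SAMP8 TFQA replicate 2 it was 0.43 and passed. Ndufc2 (chr7:97400003-97407800), an accessory membrane-arm subunit, was 13.22, 13.43 and 13.47 in SAMP8 water and 14.02, 13.81 and 13.47 in SAMP8 TFQA. The groups met at 13.47, and the difference of 0.39 (31.3%, SE 0.17, adjusted p = 0.683) passed in 8 of 17 alternative analyses. It was 0.27 without SAMP8 TFQA replicate 1 and 0.37 without SAMP8 TFQA replicate 2, and missed the threshold in both and without any 1 of the SAMP8 water arrays or without SAMR1 water replicate 3.

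No other core subunit of complex I passed in the strain or treatment comparison. Ndufv1, which holds the NADH site, was 14.80, 14.45 and 14.29 in SAMR1 water, 14.31, 14.40 and 14.29 in SAMP8 water, and 14.19, 14.39 and 14.23 in SAMP8 TFQA. The groups overlapped, with a strain difference of -0.18 (95% confidence interval -0.54 to 0.18) and a treatment difference of -0.06. Ndufs1, the largest iron-sulfur subunit, differed by 0.15 between the strains and -0.12 with TFQA. Ndufv2 differed by 0.01 and -0.01, and Ndufs3 by 0.01 and -0.02. By symbol family, 10 of 13 Ndufa genes lay below SAMR1 water in SAMP8 water (median -0.05) and 8 of 11 Ndufb genes above (median 0.05). Over the alternative analyses 7 to 12 Ndufa genes and 2 to 6 Ndufb genes lay below. Of the Ndufa genes, 12 of 13 lay below SAMR1 water in SAMP8 TFQA (median -0.11), 8 to 12 over the alternative analyses, with 0 past the threshold. Ndufv3 had the largest negative difference of complex I with TFQA (-0.30, adjusted p = 0.76). The median of complex I changed sign with scaling in the strain comparison, at 0.05 after a further quantile normalisation and -0.03 after centring each array.

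**Figure D3:**
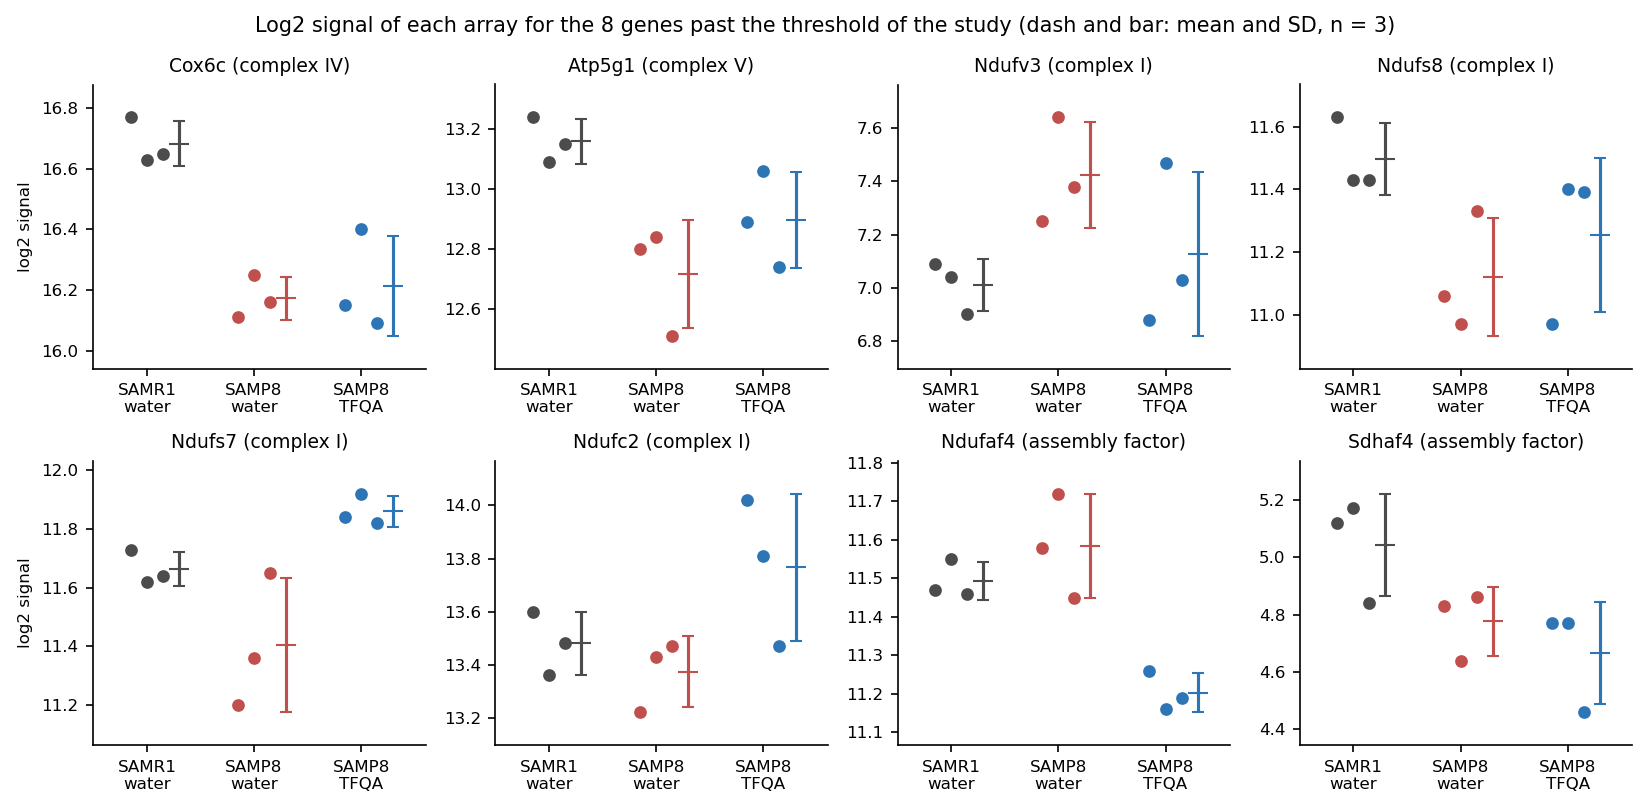
Log2 signal of each array (points, y axis) by group for the 8 genes past the threshold of the study in at least 1 comparison, with the mean and SD of the 3 arrays of a group. Cox6c is at 16.63 to 16.77 in SAMR1 water and at 16.40 or below on all 6 SAMP8 arrays, and Ndufs7 is highest on the 3 TFQA arrays.

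Complex II, succinate dehydrogenase, links the TCA cycle to the chain. All 4 of its genes lay below the SAMR1 water mean in SAMP8 water (median -0.15), 0 past the threshold of the study, and 3 of 4 lay above SAMP8 water with TFQA (median 0.16), again 0 past. Sdha, the flavin subunit that oxidises succinate, was 11.13, 11.17 and 11.26 in SAMR1 water, 10.83, 11.04 and 10.99 in SAMP8 water, and 11.40, 11.18 and 11.08 in SAMP8 TFQA. The SAMP8 water arrays lay below all arrays of both other groups. The strain difference was -0.23 (95% confidence interval -0.56 to 0.09, adjusted p = 0.913) and the treatment difference 0.27 (-0.06 to 0.59, adjusted p = 0.742). Sdhb, the iron-sulfur subunit, differed by -0.13 and 0.15 in the same order. Of the membrane anchors, Sdhc differed by -0.01 and 0.16, and Sdhd by -0.18 and -0.07. The mean deviation over the 4 genes was 0.04, 0.12 and -0.01 in SAMR1 water, -0.19, -0.03 and -0.05 in SAMP8 water, and -0.01, 0.09 and 0.04 in SAMP8 TFQA. The SAMP8 water arrays were thus lowest as a set. The signs of both medians were kept over the alternative analyses, from -0.19 to -0.10 between the strains and from 0.11 to 0.21 with TFQA. Only a rescaling, or removal of an array of the groups compared, can move such a median, and the other alternatives leave it unchanged.

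Complex III, the cytochrome bc1 complex, showed no common direction, with 4 genes above and 4 below in both the strain and the treatment comparison (medians 0.02 and -0.02) and 0 of 8 past the threshold in any comparison. Its Rieske iron-sulfur subunit Uqcrfs1 differed by -0.17 between the strains and 0.03 with TFQA. Of the core subunits, Uqcrc2 differed by -0.20 and 0.14. Uqcrc1 was 12.25 ± 0.22 (SD, n = 3) in SAMR1 water, with SAMP8 water arrays at 11.73, 12.13 and 12.08 and TFQA arrays at 11.68, 12.10 and 11.88. The groups overlapped, and the strain difference of -0.27 was the most negative of the complex (95% confidence interval -0.66 to 0.13, adjusted p = 0.921). Uqcr11, a small subunit, had the largest positive strain difference (0.25, adjusted p = 0.934) and the most negative TFQA difference (-0.27, adjusted p = 0.773). Uqcrb, which binds near the ubiquinone site, was 16.77, 16.71 and 16.40 in SAMR1 water and 17.09, 16.97 and 16.82 in SAMP8 TFQA. Those groups did not overlap, but the difference of 0.33 did not pass (95% confidence interval -0.01 to 0.68, adjusted p = 0.633).

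Complex IV, cytochrome c oxidase, held the gene with the clearest difference, Cox6c, a nuclear-encoded small subunit. It was 16.77, 16.63 and 16.65 in SAMR1 water, 16.11, 16.25 and 16.16 in SAMP8 water, and 16.15, 16.40 and 16.09 in SAMP8 TFQA. Every SAMP8 array lay below every SAMR1 array, and the 2 SAMP8 groups overlapped. Cox6c (chr15:35931976-35938246, GRCm38.p6) was lower in SAMP8 water vs. SAMR1 water by a difference of -29.8% (log2 -0.51, SE 0.15, 95% confidence interval -0.83 to -0.19, adjusted p = 0.346). The difference was -27.8% in SAMP8 TFQA vs. SAMR1 water (log2 -0.47, adjusted p = 0.374), and the TFQA difference within SAMP8 was 0.04. It passed the threshold of the study in all 17 alternative analyses of both comparisons that included SAMR1. Its adjusted p was 0.0465 in the strain comparison with trended and robust variance estimation in limma.

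Across complex IV, 15 of 20 genes lay below SAMR1 water in SAMP8 water (median -0.10), 13 to 16 over the alternative analyses. Cox6c alone passed (5%, compared to 6.09% of all transcripts). Cox8a, a small subunit, was 17.86, 17.43 and 17.63 in SAMR1 water, 17.42, 17.42 and 17.30 in SAMP8 water, and 17.10, 17.49 and 17.31 in SAMP8 TFQA. The 2 water groups did not overlap, and the difference of -0.26 did not pass (95% confidence interval -0.62 to 0.10, adjusted p = 0.912). Cox5b was 15.41, 15.40 and 15.37 in SAMR1 water, 15.13, 15.38 and 15.16 in SAMP8 water, and 15.16, 15.27 and 15.04 in SAMP8 TFQA. The SAMR1 values were close together and above all 3 TFQA values, with differences of -0.17 between the strains and -0.24 for TFQA vs. SAMR1 water (adjusted p = 0.721). Cox4i1, which carries the regulatory adenine nucleotide site, differed by -0.13 and -0.04, and Cox5a by -0.17 and 0.05, in the strain and treatment comparisons. With TFQA, 11 genes lay above and 9 below SAMP8 water (median 0.02), and 0 passed. That median was -0.02 after a further quantile normalisation and -0.06 without SAMP8 TFQA replicate 2.

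Isoforms of complex IV subunits replace one another by tissue or oxygen supply. The 8 isoforms Cox4i2, Cox6a2, Cox6b2, Cox7a1, Cox7b2, Cox8b, Cox8c and Ndufa4l2 gave values from 4.61 to 7.09, 4 above and 4 below in both the strain and treatment comparisons, with 0 past the threshold. Ndufa4l2, induced by hypoxia in other tissues, was 5.89, 5.86 and 6.10 in SAMR1 water, 6.51, 6.56 and 6.10 in SAMP8 water, and 7.09, 5.73 and 6.59 in SAMP8 TFQA. It had the largest positive strain difference of the complex (0.44), with a wide 95% confidence interval of -0.17 to 1.05 (adjusted p = 0.912), and the groups touched at 6.10. Its partner Ndufa4 differed by -0.02 and 0.09. Cox7a2l, a supercomplex assembly subunit, and Cox6b2 had the largest positive differences with TFQA, both 0.19, and Cox7a1, the muscle isoform, the most negative (-0.16). The common isoforms Cox6a1 (-0.15 and -0.04), Cox6b1 (-0.10 and 0.03) and Cox7a2 (0.02 and 0.03) did not pass in the strain and treatment comparisons.

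**Figure D4:**
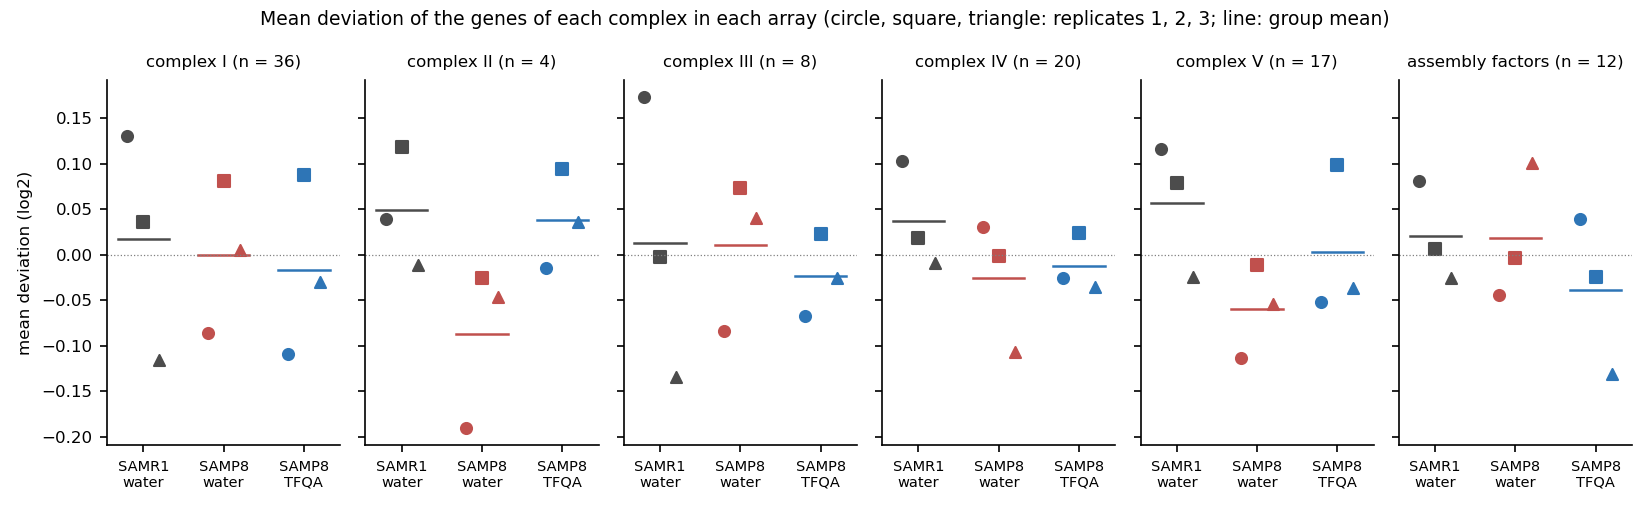
Mean log2 deviation over the genes of each complex (panels) on each array (points, marker shape by replicate number), by group, with the group mean as a line. In complex II the SAMP8 water arrays (-0.19 to -0.03) lie below all SAMR1 water arrays (-0.01 to 0.12), and in the other panels the groups overlap.

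Complex V, the ATP synthase, had 15 of 17 genes below the SAMR1 water mean in SAMP8 water (median -0.12), 12 to 16 over the alternative analyses. Of the 17 genes, 1 passed (5.88%, compared to 6.09% of all transcripts). Atp5g1 encodes subunit c, which forms the rotating ring of the membrane part. It was 13.24, 13.09 and 13.15 in SAMR1 water, 12.80, 12.84 and 12.51 in SAMP8 water, and 12.89, 13.06 and 12.74 in SAMP8 TFQA. Every SAMP8 array lay below every SAMR1 array, and the 2 SAMP8 groups overlapped. Atp5g1 (chr11:96072793-96075694) was lower in SAMP8 water vs. SAMR1 water by a difference of -26.5% (log2 -0.44, SE 0.16, adjusted p = 0.566), and the log2 difference was -0.34 and missed the threshold without SAMP8 water replicate 3. In SAMP8 TFQA the difference from SAMR1 water was -0.26 (adjusted p = 0.706) and from SAMP8 water 0.18. The protein of subunit c is also made from Atp5g2 and Atp5g3, which differ in the targeting peptide, and those differed by 0.01 and -0.14 between the strains. The difference of Atp5g1 from these 2 genes was not tested.

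The F1 subunits that form the catalytic sites did not pass in any comparison. Atp5b, the beta subunit with the catalytic sites, differed by -0.16 between the strains (95% confidence interval -0.48 to 0.15) and -0.02 with TFQA. Atp5a1, the alpha subunit, differed by -0.07 (-0.39 to 0.26) and 0.08. With TFQA, 13 of 17 genes of complex V lay above and 4 below SAMP8 water (median 0.06), 0 past the threshold, and 9 lay above and 8 below without SAMP8 TFQA replicate 2 (median 0.01). The largest was Atp5pb, subunit b of the stator, at 12.88, 13.00 and 12.83 in SAMP8 water and 13.36, 13.32 and 12.93 in SAMP8 TFQA. The groups overlapped, and the difference was 0.30 (95% confidence interval -0.05 to 0.65, adjusted p = 0.727). Atp5g3 was 13.59, 13.69 and 13.73 in SAMP8 water and 13.89, 13.97 and 13.79 in SAMP8 TFQA, without overlap, and the difference of 0.21 did not pass (adjusted p = 0.791). Atp5e, the epsilon subunit, was the most negative (-0.19), and Atp5l, subunit g, had the largest positive strain difference (0.07).

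**Figure D5:**
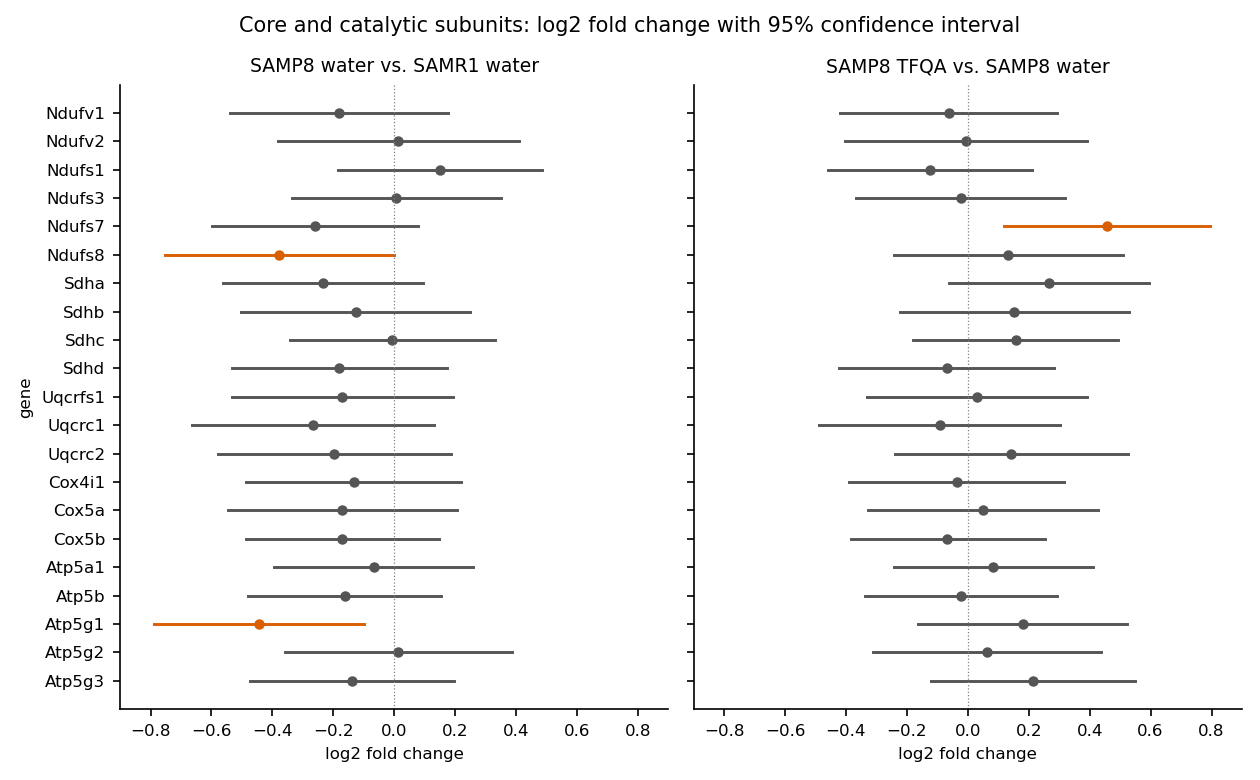
Log2 fold change (x axis, points) with 95% confidence interval (lines) of 21 subunits in the strain and treatment comparisons (panels), genes past the threshold of the study in orange. The set joins core and catalytic subunits with Cox4i1, Cox5a, Cox5b and the subunit c genes. In the strain comparison 17 of 21 points lie below 0, compared to 52.4% of all transcripts, and this count was not repeated over the alternative analyses. The intervals of Ndufs8 and Atp5g1 do not reach 0 there, and with TFQA the interval of Ndufs7 alone lies above it.

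The 12 assembly factors insert cofactors or join modules and are not part of the finished complexes. Between the strains 5 lay above and 7 below (median -0.02) and 0 passed. With TFQA 4 lay above and 8 below (median -0.06) and 1 passed (8.33%, compared to 7.12% of all transcripts). Ndufaf4 (chr4:24898083-24905001), which acts in the assembly of the membrane-bound part of complex I, was 11.47, 11.55 and 11.46 in SAMR1 water, 11.58, 11.72 and 11.45 in SAMP8 water, and 11.26, 11.16 and 11.19 in SAMP8 TFQA. The TFQA arrays lay below every array of both water groups. The difference from SAMP8 water was -23.2% (log2 -0.38, SE 0.14, adjusted p = 0.612). It missed the threshold at -0.31 without SAMP8 water replicate 2 and at -0.36 without SAMP8 TFQA replicate 2. Compared to SAMR1 water it differed by -0.29 (adjusted p = 0.647). Ndufaf3, its partner in the same step, differed by -0.32 with TFQA (adjusted p = 0.72), and Ndufaf6 had the largest positive difference (0.27).

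Sdhaf4 (chr1:23995939-24005640), which helps to mature the flavin subunit Sdha, was 5.12, 5.17 and 4.84 in SAMR1 water, 4.83, 4.64 and 4.86 in SAMP8 water, and 4.77, 4.77 and 4.46 in SAMP8 TFQA. The TFQA arrays lay below the SAMR1 arrays, and the means differed by -23.0% (log2 -0.38, adjusted p = 0.594), and the call held in 10 of 16 alternative analyses, since the gene is among the dimmest 40% of transcripts that the remaining one leaves out. It was lost without SAMP8 TFQA replicate 3 (-0.27), without SAMR1 water replicate 1 (-0.34) or 2 (-0.31), and without SAMP8 water replicate 1 (-0.38). Ndufaf7, a methyltransferase needed for the assembly of complex I, had the largest positive strain difference, at 8.87, 8.45 and 8.65 in SAMR1 water and 8.95, 8.90 and 9.10 in SAMP8 water. The groups did not overlap, and the difference of 0.33 did not pass (95% confidence interval -0.04 to 0.69, adjusted p = 0.846).

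Other mitochondrial genes were read from lists of the same pathway. Of 27 genes of pyruvate dehydrogenase and the TCA cycle, 8 lay above and 19 below SAMR1 water in SAMP8 water (median -0.09), and 0 passed in any comparison. Of 15 genes of cytochrome c and coenzyme Q synthesis, 0 passed in the strain and treatment comparisons. In SAMP8 TFQA vs. SAMR1 water 2 of those were lower (13.3%, compared to 8.06%), Coq8b (-0.58, adjusted p = 0.333) and Coq8a (-0.47), kinase-like proteins of coenzyme Q synthesis. Of 42 further assembly factors, 2 passed between the strains, both lower (4.76%, compared to 6.09% of all transcripts). With TFQA 2 were higher and 1 lower (7.14%, compared to 7.12%), and in the remaining pair 1 was higher and 2 lower (7.14%, compared to 8.06%). The strain calls were Taco1 (-0.40), a translational activator of the mitochondrial Cox1 mRNA, and Cox18 (-0.38), which inserts a membrane segment of complex IV. The TFQA calls were Cox11 (0.49), a copper chaperone of complex IV, Uqcc2 (0.38), an assembly factor of complex III, and Atpaf2 (-0.40). The SD of Cox11 was 0.45 in SAMP8 water, compared to 0.14 in SAMR1 water and 0.11 in SAMP8 TFQA.

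Regulators of mitochondrial gene expression gave 3 calls of 25 between the strains, all lower (12%, compared to 6.09% of all transcripts), and 3 with TFQA, 2 higher and 1 lower (12%, compared to 7.12%). Mterf1a, a mitochondrial transcription termination factor, had means of 8.46, 7.89 and 8.33 in SAMR1 water, SAMP8 water and SAMP8 TFQA (strain -0.57, adjusted p = 0.478, TFQA 0.45, adjusted p = 0.662). Mterf3, of the same family, had means of 9.73, 9.17 and 9.72 (strain -0.56, adjusted p = 0.532, TFQA 0.55, adjusted p = 0.587). Both were thus lower in SAMP8 water and higher with TFQA, in comparisons that share the SAMP8 water arrays. Nrf1, whose motif was counted in the promoters above, averaged 7.88 in SAMP8 TFQA, compared to 8.50 in SAMP8 water (-0.62, SE 0.20, adjusted p = 0.564), and -0.80 without SAMP8 TFQA replicate 2. In SAMP8 TFQA vs. SAMR1 water 1 of 25 passed (4%, compared to 8.06%). This was Ppargc1a, a coactivator of mitochondrial biogenesis, which was lower (-0.41, adjusted p = 0.527).

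Carriers, porins and uncoupling proteins gave 2 calls of 17 between the strains, 1 higher and 1 lower (11.8%, compared to 6.09% of all transcripts). With TFQA 2 passed, both higher (11.8%, compared to 7.12%), and in the remaining pair 0 passed (background 8.06%). Slc25a27, a brain member of the uncoupling protein family, averaged 11.54, 11.17 and 11.81 in the 3 groups in the same order (TFQA 0.64, adjusted p = 0.561). Of 22 genes of fusion, fission and mitophagy, 1 passed between the strains (4.55%, compared to 6.09%). With TFQA 3 passed, 2 higher and 1 lower (13.6%, compared to 7.12%), among them Apool (0.55, adjusted p = 0.561), a cristae-organising protein. In the remaining pair 1 passed (4.55%, compared to 8.06%). The mitochondrial ribosome, which makes the subunits encoded by mitochondrial DNA, had 76 genes on its list. Between the strains 4 passed, 2 higher and 2 lower (5.26%, compared to 6.09%), and the list median was -0.003. The higher ones were Mrpl35 (0.76, adjusted p = 0.135) and Mrpl14 (0.53, adjusted p = 0.449). With TFQA 1 passed, higher (1.32%, compared to 7.12%). In the remaining pair 5 passed, 2 higher and 3 lower (6.58%, compared to 8.06%). Mrpl41, a protein of the large mitochondrial ribosomal subunit, was the single gene of these pathway lists past an adjusted p of 0.05. It averaged 8.97, 7.73 and 7.91 in the 3 groups (strain -1.24, SE 0.22, adjusted p = 0.0226). Its adjusted p was 0.121 without SAMP8 water replicate 1, 0.126 without SAMP8 water replicate 3, 0.133 without SAMR1 water replicate 1 and 0.131 without SAMR1 water replicate 2, and 0.278 without moderation of the variances. Of 60 genes of the cytosolic ribosome, 2 passed between the strains, both lower (3.33%, compared to 6.09%). With TFQA 0 passed (background 7.12%), and in the remaining pair 4 passed, all lower (6.67%, compared to 8.06%).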

How the data were processed

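Hippocampal RNA of 9 samples from male mice was read on Clariom S Mouse arrays. The values deposited by the authors are log2 signals, background-corrected, normalised and summarised per transcript in the array maker's console, mm10 build; the labels name RMA and the paper the signal space transformation form of RMA. The paper names the hippocampus, the labels brain and neural stem cells. RMA makes array distributions alike, so a shift common to most genes would not be seen. An array gives no read depth, and the 3 arrays per group limit the precision. All columns belonged to samples of the series (0 others). Of 22206 transcripts, 19572 had 1 gene symbol and 2634 had none.

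All transcripts were fitted in limma 3.58.1 (R 4.3.3) with 1 coefficient per group and default eBayes, on all 9 arrays. A gene was called where the unadjusted p was under 0.05 and the fold change above 1.1, the cut the study used for its gene lists, and was also judged after Benjamini-Hochberg adjustment over all 22206 transcripts. Medians by complex are descriptions without a test. The fit was tested on simulated data. Named of the 97 genes are those past the threshold and the largest differences per complex in the strain and treatment comparisons. Core and catalytic subunits, Cox4i1, Cox5a, Cox5b and isoforms are also named. Of the pathway lists, only some of the genes with the smallest p-values are named. The members and lists were chosen with earlier results of these data known. Alternatives were quantile normalisation again, centring on the array median, removal of the dimmest 40% of transcripts, which holds 3 of the 97 genes, means over transcripts, trended and robust eBayes, unmoderated one-way ANOVA, only the 2 groups compared, a replicate block and leaving out each array.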

Additional observations from a re-analysis of the deposited data

How the results depend on the processing

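The number of genes past the threshold of the study was 4 between the strains, 3 with TFQA and 2 in SAMP8 TFQA vs. SAMR1 water. Under a one-way ANOVA without moderated variances these counts were 2, 5 and 6. With trended and robust variance the last count was 6, and 1 gene, Cox6c, passed an adjusted p of 0.05 between the strains. With only the 2 groups compared the last count was 1, and over the 85 subunits alone it was also 1. Leaving out each array in turn gave 2 to 4 genes between the strains, 1 to 4 with TFQA and 1 to 5 in the remaining pair, where the 5 came without SAMP8 TFQA replicate 2. It moved the median of the assembly factors from -0.121 to -0.021 with TFQA and from -0.111 to 0.004 in the remaining pair, and that of complex V in the remaining pair from -0.122 to 0.015. The strain difference of Cox5b was -0.05 after a further quantile normalisation. The cause of these changes was not tested. No called difference changed direction in any alternative, and averaging transcripts changed no fold change or call of these genes, since each had 1. Same-numbered arrays of different groups correlated in their deviations at 6.148e-05 to 0.153, and differently numbered arrays at -0.113 to 0.0695. Nothing used here states whether replicate numbers mark shared preparation, and the main fit did not pair arrays by them. With a replicate block 3, 2 and 2 genes passed, and 0 passed an adjusted p of 0.05.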
